A study of Mus musculus with 15 samples.

Results

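Levels of 10 mouse genes of DNA methylation and Polycomb repression were examined in cultured pro-B cells and in DN3 cells, an early T cell stage. The members were Dnmt1, Dnmt3a, Dnmt3b, Uhrf1, Hells and Tet2 of the DNA methylation machinery, and Ezh1, Ezh2, Suz12 and Eed of Polycomb repressive complex 2 (PRC2). They were taken by name from the 19057 genes with a named probe on the array, and every probe of each gene was followed. A named probe was found for 9 of the 10 genes, 18 probes in all, and Tet2 was not analysed here. A probe was kept if its signal stood above the array's background at a detection p under 0.05 on at least 3 arrays. This left 8 member probes of 7 genes among the 9687 genes measured in pro-B cells.

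DNA methylation in mammals sits mainly on cytosines followed by guanine (CpG), where it is associated with silent promoters and repeats. Dnmt1 copies the mark onto newly made DNA, guided by Uhrf1, which binds hemimethylated CpG after replication, while Dnmt3a and Dnmt3b place marks on unmethylated DNA. PRC2 places a repressive methyl mark on histone H3 through its catalytic subunit, Ezh2 or Ezh1, which needs Suz12 and Eed. In mouse pro-B cells, Ezh2 is known to be needed for the rearrangement of distal heavy chain variable genes.

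The series profiled total RNA on Illumina bead arrays, in 5 groups of 3 arrays, to examine pro-B cells that lack Bcl11a, a zinc finger transcription factor required for B cell development in mice. Controls were wild type pro-B cells, and the labelled deficient group was Bcl11a-deficient. A second pair is labelled as overexpressing Bcl2, a gene that blocks cell death, and "with Bcl2" stands for that label: Bcl2 controls were wild type, and the Bcl2 labelled deficient group was Bcl11a-deficient and rescued with Bcl2. The pro-B samples came from mice of mixed C57BL/6 and 129S5 background, and the DN3 group from Bcl11bCKO/CKO mice with the strain label C57B7 and the tissue label lymphocytes. All mice were 6 to 8 weeks old, and the protocol attached to every sample describes bone marrow cells grown for 10 days with IL-7, Flt3L and SCF at 50 ng/ml each. Sample titles carry OHT with a plus sign in both labelled deficient groups and with a minus sign in both controls. The treatment and the deficiency therefore cannot be told apart. Titles of the pro-B samples without Bcl2 also carry EAAE, which the labels do not explain, and those with Bcl2 do not. Comparisons with against without Bcl2 therefore differ in this part of the title as well. Neither the removed part of Bcl11a, nor the agent that cut the allele, nor the promoter that drove Bcl2 is named in the labels. The replicates are given as 3 culture batches in the series text.

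The deposited table held 14448 to 16422 probes above background per array, except control 3, which was dim: its mean signal was 187 against 445 to 769 on the other pro-B arrays, and 11473 probes were detected. The brightest Bcl11a probe went against the label without Bcl2. It read 11.34 to 11.65 on a log2 scale in the labelled deficient group and 9.30 to 10.00 in controls, a difference of 1.87 ± 0.20 (SE; limma, adjusted p = 0.0072). With Bcl2 it was lower in the labelled deficient group, by a log2 difference of -0.79 ± 0.20 (limma, adjusted p = 0.0172). The wild type groups differed as well, with Bcl2 controls above controls by 1.31 ± 0.20 (limma, adjusted p = 0.0029). Bcl2 labelled deficient cells differed from labelled deficient cells by -1.35 ± 0.20 (0.000382). A second kept Bcl11a probe passed in none of these comparisons. Labelled deficient minus control, it gave -0.25 without Bcl2 (adjusted p = 0.875) and -0.92 with it (0.175), so the probes disagree in sign without Bcl2. Their place relative to the deleted part is not known here, so they check the labels only in part. Bcl2's own probes did not show the labelled overexpression: of 4 kept probes, 0 passed in either comparison with against without Bcl2, and 0 had an unadjusted p under 0.05. The brightest read 6.92 to 8.09 in Bcl2 controls against 7.65 to 8.997 in controls (-0.83, limma, adjusted p = 0.247), and 7.64 to 7.88 in the Bcl2 labelled deficient group against 8.06 to 8.96 without Bcl2 (-0.82, 0.137). The labels do not name the species or part of Bcl2 that was expressed, so whether these probes could read it is not known here. A total of 8 of 9 pro-B markers with a probe were above background on all arrays of each pro-B group, and all 10 DN3 markers with a probe on all DN3 arrays, Bcl11b among them. Levels were summed over the 9 measured of 12 neutrophil and monocyte markers. The sums ranged from 8420.5 to 15553 without Bcl2, from 2178.9 to 4010.8 in the Bcl2 labelled deficient group and from 509.53 to 751.79 in Bcl2 controls. Mpo and S100a8 were at background on every Bcl2 array. The part of these markers in the differences between these groups was not tested.

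In cells labelled as overexpressing Bcl2, the maintenance pair Dnmt1 and Uhrf1 and the de novo enzyme Dnmt3b were lower in the labelled deficient group, by 3.44-fold, 2.90-fold and 2.28-fold. No PRC2 member passed the test there. Without Bcl2, no member passed the test. In DN3 cells against pro-B controls, Dnmt3b and Ezh2 were higher and Suz12 was lower. In such bulk samples fewer cells of a type and less RNA per cell cannot be told apart. The plot of levels shows each measured probe on every array.

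**Figure D1:**
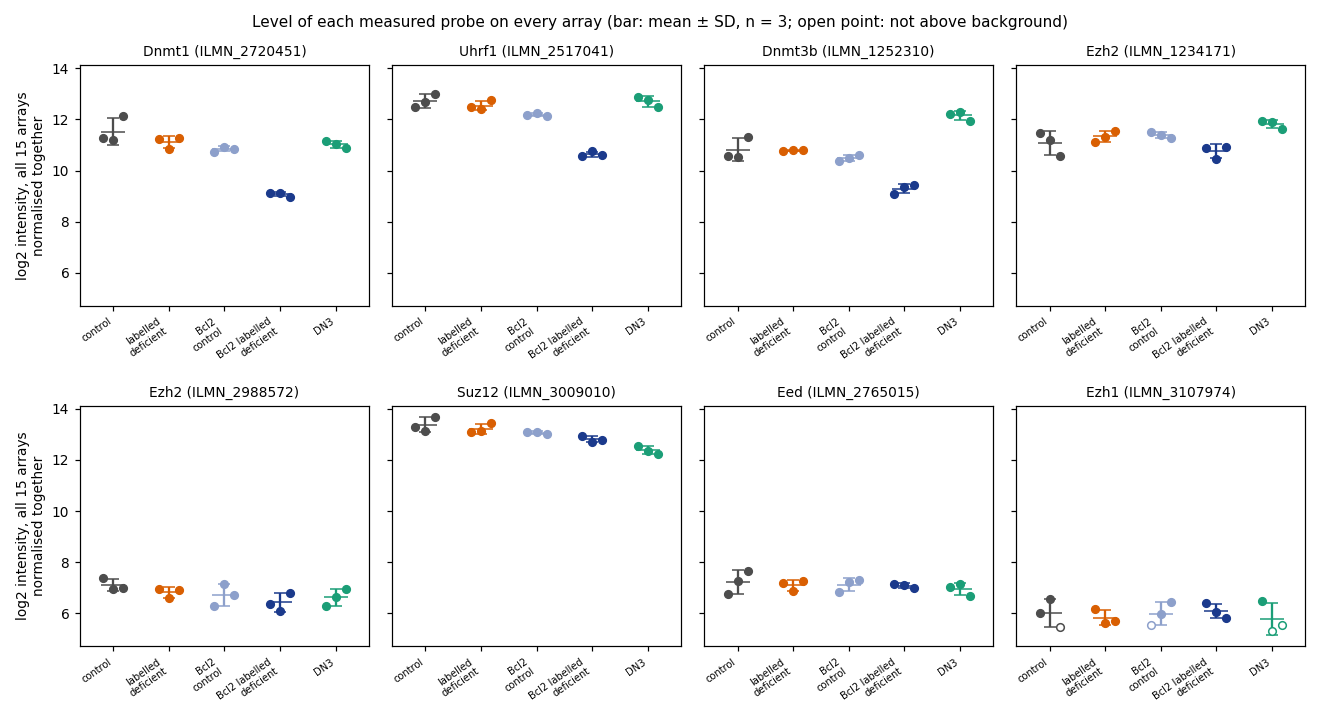
Normalised log2 intensity of the 8 kept member probes on all 15 arrays, by group (n = 3 arrays each); bars are mean ± SD and open points are arrays where the probe was not above background. Dnmt1, Uhrf1 and Dnmt3b are lowest on all 3 Bcl2 labelled deficient arrays, and Dnmt3b is highest on the 3 DN3 arrays.

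Dnmt1, the maintenance methyltransferase, had 1 probe, above background on all 15 arrays. Its log2 intensity was 11.54, 11.44 and 12.39 on control arrays 1 to 3, and 11.50, 11.12 and 11.54 on labelled deficient arrays 1 to 3. These groups overlapped. In Bcl2 controls it was 11.01, 11.20 and 11.12, and in the Bcl2 labelled deficient group 9.37, 9.37 and 9.24. Every Bcl2 labelled deficient array lay below every other pro-B array.

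Uhrf1, which recruits Dnmt1, had 1 kept probe. It read 12.74, 12.95 and 13.26 in controls, 12.73, 12.66 and 13.03 in the labelled deficient group and 12.44, 12.50 and 12.39 in Bcl2 controls. In the Bcl2 labelled deficient group it read 10.84, 11.02 and 10.86, below every other pro-B array. The second Uhrf1 probe was at background on all 15 arrays.

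Dnmt3b, a de novo methyltransferase, read 10.82, 10.81 and 11.59 in controls and 11.02, 11.06 and 11.07 in the labelled deficient group. It read 10.64, 10.74 and 10.86 in Bcl2 controls and 9.35, 9.61 and 9.71 in the Bcl2 labelled deficient group. The last group again lay below every other pro-B array. A second Dnmt3b probe was above background on 1 array only, Bcl2 control 1.

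Labelled deficient and control cells were compared first without Bcl2. None of the 8 member probes passed limma's test after Benjamini-Hochberg adjustment over 17719 probes (threshold 0.05), and 0 had an unadjusted p under 0.05. In this comparison 0.00564% of all probes were called higher and 0.0169% lower. The log2 difference was -0.41 ± 0.24 for Dnmt1 (SE; limma, adjusted p = 0.803), -0.18 ± 0.18 for Uhrf1 (0.81) and -0.02 ± 0.22 for Dnmt3b (0.977). Within slide 2, which held 1 array of each of these groups, the dim control 3 among them, Dnmt1 gave -0.85 (adjusted p = 0.039), and within slide 1 it gave -0.18 (adjusted p = 1). With 3 arrays a group, an exact permutation test of a single value cannot give a two-sided p below 0.1, so the fit across all probes was used throughout.

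With Bcl2, Dnmt1 fell by 1.78 ± 0.24 on the log2 scale in labelled deficient cells (SE; limma, adjusted p = 0.000306). Uhrf1 fell by 1.54 ± 0.18 (adjusted p = 0.000106) and Dnmt3b by 1.19 ± 0.22 (adjusted p = 0.00233). For each of the 3 genes the arrays of the groups did not overlap, as for 5 of the 8 member probes in all. The share over all probes is not given here, so this is no separate support. These genes made up 3 of 8 member probes called, all lower, where 10.3% of all probes were called higher and 10.1% lower. The summed level of the 29 measured S phase genes was also lowest in the Bcl2 labelled deficient group. It was 16088 to 16702 on the Bcl2 labelled deficient arrays and 58485 to 84560 on all others. Of 4 measured erythroid markers 2 were lower, the globins Hbb-bs (-3.57) and Hbb-bt (-3.84), and the summed level of that list was 8789.7 to 10999 against 15072 to 20278 in Bcl2 controls. Of 8 measured pro-B markers 4 were higher, among them Rag1 (1.93) and Dntt (1.85), with sums of 103680 to 108610 against 82780 to 88455. The part of these markers in the members' differences was not tested. The calls of these 3 probes held without any 1 of the 12 pro-B arrays. Arrays lay on 2 slides, and within slide 1 Dnmt1 fell by 1.63 (limma, adjusted p = 0.0509), while within slide 2 it fell by 1.86 (0.000659). Slide 1 held only 1 array of each Bcl2 group, whose spread is taken from the other arrays, so its values are no replicated check. Within slide 2, with 2 arrays of each, Uhrf1 fell by 1.51 (0.00161) and Dnmt3b by 1.14 (0.00463). The authors' deposited scores, which rescale each probe over all 15 arrays, gave adjusted p of 0.185 for Dnmt1, 0.242 for Uhrf1 and 0.167 for Dnmt3b.

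Whether the labelled deficient effect differed with Bcl2 was tested as an interaction. The difference between the effects was -1.36 ± 0.25 for Uhrf1 (limma, adjusted p = 0.00655), -1.38 ± 0.34 for Dnmt1 (0.0286) and -1.17 ± 0.30 for Dnmt3b (0.0387). In the interaction 3.19% of all probes were called higher and 4.71% lower. The Uhrf1 call held without any single array. With the deposited scores none of the 3 passed (0.471 for Uhrf1, 0.482 for Dnmt1 and 0.373 for Dnmt3b). The Dnmt1 call was lost without any 1 of 9 of the 12 arrays, with adjusted p from 0.0563 to 0.0781, and held only without control 1, control 3 or labelled deficient 2. The Dnmt3b call was lost without any array other than control 3, with adjusted p from 0.0594 to 0.106. Each slide held single arrays of 2 of the 4 groups, the Bcl2 groups on slide 1 and the others, with the dim control 3, on slide 2, so within-slide values of the interaction rest on unreplicated groups. They were -1.45 and -1.003 for Dnmt1 (adjusted p = 0.161 and 0.0423), -1.45 and -1.27 for Uhrf1 (0.123 and 0.0217) and -1.51 and -0.62 for Dnmt3b (0.102 and 0.156) on slides 1 and 2.

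**Figure D2:**
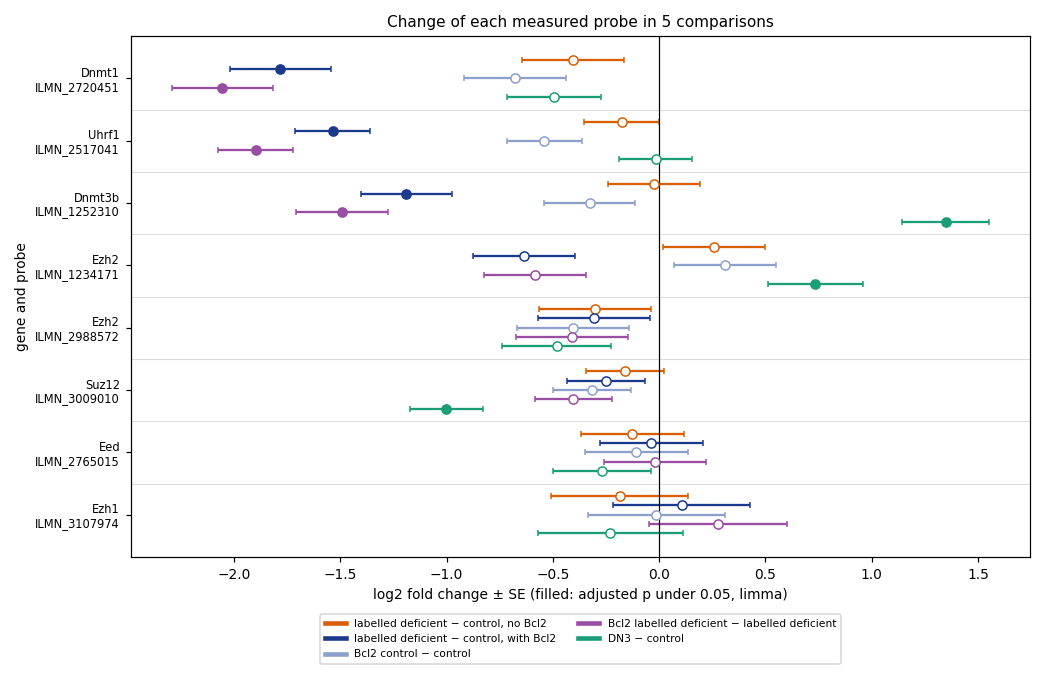
Log2 fold change ± SE of each kept member probe in 5 comparisons (limma, 3 arrays a group); filled points passed an adjusted p under 0.05. Dnmt1, Uhrf1 and Dnmt3b have filled points to the left in both comparisons that involve the Bcl2 labelled deficient group, and Dnmt3b and 1 Ezh2 probe have filled points to the right in DN3 cells.

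Bcl2 itself was then compared at equal label. In wild type cells no member probe passed the test with Bcl2, 2 had an unadjusted p under 0.05, and 4.15% of all probes were called higher and 2.75% lower. The log2 difference was -0.68 ± 0.24 for Dnmt1 (limma, adjusted p = 0.12) and -0.54 ± 0.18 for Uhrf1 (0.0959). With the slide as a block these became -0.78 (0.0459) and -0.61 (0.037), which passed. With array weights Uhrf1 passed as well (-0.44, 0.0379). Within slide 2 the control group is the dim control 3 alone, and against it Dnmt1 (-1.23, adjusted p = 0.00513), Uhrf1 (-0.82, 0.0229), Dnmt3b (-0.79, 0.0246) and Suz12 (-0.65, 0.0456) were lower at an adjusted p under 0.05. Within slide 1, with 1 Bcl2 control array, no member passed, and Dnmt1 gave -0.48 (0.355) and Uhrf1 -0.41 (0.353). In labelled deficient cells with Bcl2 against those without, Dnmt1 was 4.16-fold lower, Uhrf1 3.73-fold lower and Dnmt3b 2.81-fold lower (limma, adjusted p = 5.66e-05, 1.03e-05 and 0.000273). There 18.3% of all probes were called higher and 16.8% lower. These 3 calls held without any single array. Within slides 1 and 2, each with a single array in 1 of these groups, the differences were -1.93 and -2.23 for Dnmt1, -1.85 and -2.09 for Uhrf1 and -1.69 and -1.41 for Dnmt3b. Ezh2 (-0.58 ± 0.24, adjusted p = 0.0787) and Suz12 (-0.40 ± 0.18, 0.108) did not pass, but both passed as lower without control 3 (0.0131 and 0.0239) and with array weights (0.0111 and 0.0156). Ezh2 also passed with only the arrays of the comparison (0.0304), and Suz12 with 75th percentile scaling (-0.67, 0.00682). This comparison shares its Bcl2 labelled deficient arrays with the one above, so the values are not separate evidence.

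The promoters of the 3 genes that fell with Bcl2, and of Ezh2, are shown because Dnmt1, Uhrf1 and Ezh2 are known targets of E2F, the factor family that drives genes of DNA replication. Each window is 300 bases, from 250 before the gene's start to 50 after it, from RefSeq on GRCm38.p6; where RefSeq lists several starts, the window with the most CpG is given. Capitals mark matches to the E2F motif TTTNNCGC on either strand. The Dnmt3b promoter was added after its values were seen. The Hells promoter, which held 1 match, had been planned but is not shown.
Dnmt1, chr9:20952574-20952873, minus strand: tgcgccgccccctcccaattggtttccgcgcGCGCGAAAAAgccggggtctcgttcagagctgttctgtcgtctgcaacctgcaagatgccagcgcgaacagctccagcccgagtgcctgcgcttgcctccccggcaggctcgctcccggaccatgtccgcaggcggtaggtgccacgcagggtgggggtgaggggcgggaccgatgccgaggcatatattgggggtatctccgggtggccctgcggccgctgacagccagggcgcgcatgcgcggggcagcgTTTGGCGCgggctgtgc
Uhrf1, chr17:56304063-56304362, plus strand: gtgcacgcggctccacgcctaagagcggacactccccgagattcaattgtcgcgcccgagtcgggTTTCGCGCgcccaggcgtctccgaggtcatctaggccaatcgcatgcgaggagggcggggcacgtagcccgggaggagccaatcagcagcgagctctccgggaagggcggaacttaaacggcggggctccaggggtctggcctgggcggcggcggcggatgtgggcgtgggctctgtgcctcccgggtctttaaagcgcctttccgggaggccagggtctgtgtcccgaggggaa
Dnmt3b, chr2:153649199-153649498, plus strand: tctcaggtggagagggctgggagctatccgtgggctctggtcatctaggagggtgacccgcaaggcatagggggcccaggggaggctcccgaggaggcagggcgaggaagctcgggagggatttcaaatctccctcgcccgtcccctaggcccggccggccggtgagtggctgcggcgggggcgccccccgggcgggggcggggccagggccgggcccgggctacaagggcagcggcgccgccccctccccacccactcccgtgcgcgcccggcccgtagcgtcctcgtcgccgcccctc
Ezh2, chr6:47594981-47595280, minus strand: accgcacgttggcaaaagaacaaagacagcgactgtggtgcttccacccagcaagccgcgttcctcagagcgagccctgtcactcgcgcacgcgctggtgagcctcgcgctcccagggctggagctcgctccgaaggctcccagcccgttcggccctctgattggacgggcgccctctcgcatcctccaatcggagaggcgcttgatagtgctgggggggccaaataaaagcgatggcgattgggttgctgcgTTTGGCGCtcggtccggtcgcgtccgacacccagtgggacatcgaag
The Dnmt1 window held 3 matches, of which 2 overlap, and 33 CpG. Uhrf1 had 1 match and 33 CpG, Ezh2 had 1 match and 31 CpG, and Dnmt3b had none and 30 CpG. The median over all 32851 mouse windows was 7 CpG, and the motif itself holds a CpG. A match stood in 5 of the 10 members, the others being Hells and Suz12, against 5.93% of all genes. By window, it stood in 6 of their 15, against 5.17% of all windows. A match describes these letters only.

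Among PRC2 members, Ezh2, the catalytic subunit, had a bright probe that read 11.72, 11.47 and 10.84 in controls and 11.40, 11.58 and 11.83 in the labelled deficient group. It read 11.76, 11.66 and 11.54 in Bcl2 controls and 11.16, 10.71 and 11.19 in the Bcl2 labelled deficient group. The Bcl2 groups did not overlap, but the log2 difference of -0.64 ± 0.24 did not pass (limma, adjusted p = 0.0852). It passed under 3 of 26 alternatives, without control 3, the dim array (adjusted p = 0.0121), with only the arrays of the comparison (0.0163) and with array weights (0.00642), and the adjusted p ranged from 0.00642 to 0.52 over them. Without Bcl2 the difference was 0.26 ± 0.24 (adjusted p = 0.807), or -0.11 within slide 1 (adjusted p = 1) and 0.99 between the single arrays of slide 2 (0.0454), and the interaction of -0.89 ± 0.34 did not pass either (0.138), and within slide 2, with those single arrays, it was -1.64 (0.0169). A dimmer Ezh2 probe gave -0.31 ± 0.26 with Bcl2 (adjusted p = 0.491), and another was at background on all 15 arrays.

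Suz12, a core subunit, read 13.56, 13.40 and 13.95 in controls, 13.34, 13.40 and 13.70 in the labelled deficient group, 13.36, 13.34 and 13.26 in Bcl2 controls and 13.20, 12.96 and 13.05 in the Bcl2 labelled deficient group. The Bcl2 groups did not overlap, with a log2 difference of -0.25 ± 0.18 (limma, adjusted p = 0.402). Eed, the subunit that binds the methyl mark, was dim, between 6.98 and 7.92 over the 12 arrays, and differed by -0.04 with Bcl2 (adjusted p = 0.943). Ezh1, the other catalytic subunit, lay near background, between 5.61 and 6.78. It was above background on 11 of the 15 arrays and differed by 0.11 with Bcl2 (adjusted p = 0.875).

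Dnmt3a, the other de novo enzyme, was at background on all 15 arrays with all 3 of its probes, and Hells, a chromatin remodeller that aids methylation of repeats, with both of its probes. Of the 18 member probes, 10 were not kept, and 8 of those were detected on no array. For a probe not above background only an upper bound of the level can be read. The map of all probes shows where this held.

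**Figure D3:**
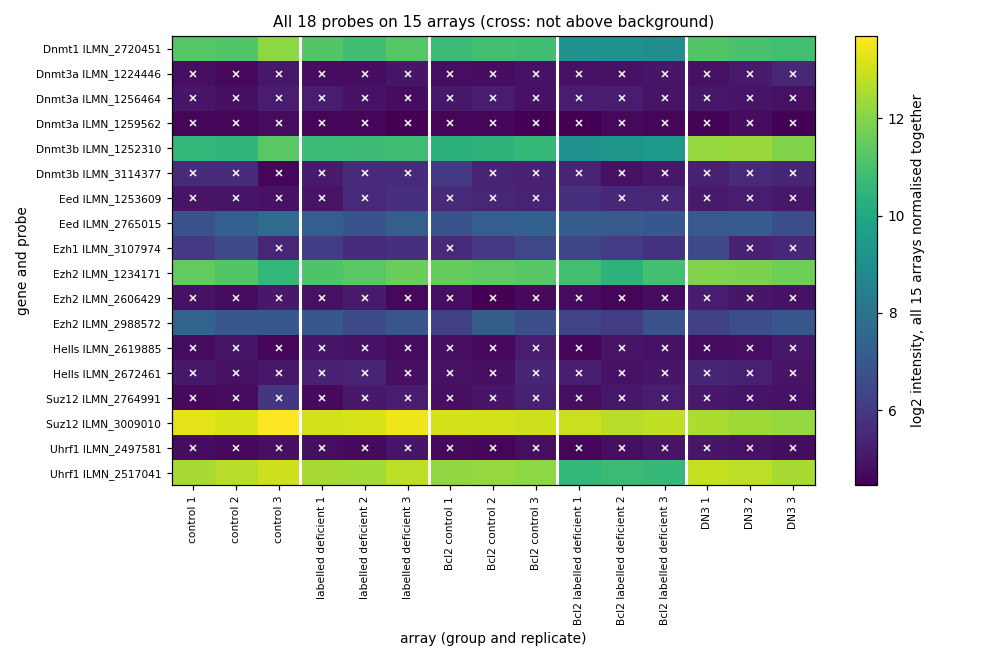
Log2 intensity of all 18 member probes (vertical axis) on the 15 arrays (horizontal axis), normalised together; a cross marks an array where the probe was not above background. The 3 Dnmt3a and 2 Hells probes carry a cross on every array, and the Dnmt1 and Uhrf1 probes that were kept are dimmest on the Bcl2 labelled deficient arrays.

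DN3 cells were set against pro-B controls with all 15 arrays normalised together, so these levels differ slightly from those above. The DN3 arrays lay on a slide of their own, and their deposited signals were not background subtracted. The genotype (Bcl11bCKO/CKO against wild type) and the strain label differed as well. Slide, preprocessing, genotype, strain and cell type therefore cannot be told apart. The control arrays are the ones used above. Dnmt3b read 12.22, 12.31 and 11.94 in DN3 cells against 10.56, 10.55 and 11.33 in controls, without overlap. It was 2.55-fold higher, a log2 difference of 1.35 ± 0.21 (limma, adjusted p = 0.000122). The authors' deposited scores, which follow the linear signals, gave the opposite sign for Dnmt3b (-0.94, adjusted p = 0.121) and for the bright Ezh2 probe (-1.30, 0.0757). The bright Ezh2 probe read 11.93, 11.88 and 11.64 against 11.46, 11.21 and 10.58 and was 1.67-fold higher (0.74 ± 0.22, adjusted p = 0.0166), while the dimmer probe gave -0.48 ± 0.26 (0.145). The groups did not overlap for the bright probe, but its call was lost without DN3 array 1 (0.68, adjusted p = 0.0545) and with only the arrays of the comparison (0.104), and with each array scaled to its 75th percentile it was -0.014 (0.978).

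Suz12 went the other way. It read 12.54, 12.36 and 12.23 in DN3 cells and 13.30, 13.14 and 13.69 in controls, with no overlap and a 2.00-fold lower level (-1.001 ± 0.17; limma, adjusted p = 0.000367). Dnmt1 read 11.17, 11.04 and 10.88 against 11.27, 11.18 and 12.12, all DN3 arrays below all controls, and did not pass (-0.49 ± 0.22, adjusted p = 0.0883); without control 2 it did (-0.67, 0.0379). Uhrf1 differed by -0.02 ± 0.17 (adjusted p = 0.948). With the 75th percentile scaling, Dnmt1 (-1.31, adjusted p = 7.55e-05) and Uhrf1 (-0.86, 0.00147) passed as lower. Eed (-0.27, adjusted p = 0.366) and Ezh1 (-0.23, 0.616) did not pass. The groups did not overlap for 5 of the 8 member probes, and the share over all probes is not given here. The 3 member probes called compare with 19.8% of all probes called higher and 23.2% lower. That was 3731 higher and 4367 lower probes, against 2433 and 5301 with the 75th percentile scaling.

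Other genes of these pathways were counted with 1 probe per gene. With Bcl2, 4 of 23 other DNA methylation genes were higher in the labelled deficient group and 5 lower, with a median log2 difference of -0.0579 against 0.0366 over all 9687 genes, of which 1133 (11.7%) were higher and 1098 (11.3%) lower. Cdca7, a partner of Hells, fell by 2.81 ± 0.17 (limma, adjusted p = 8.35e-07), Apex1, a base excision repair nuclease, by 2.00 ± 0.29 (0.000555) and Idh1, which makes the cofactor of Tet enzymes, by 1.37 ± 0.15 (6.24e-05). Gadd45g and Gadd45a, stress proteins linked to demethylation, rose by 1.81 ± 0.38 (0.00585) and 1.34 ± 0.26 (0.00338). Mbd3, a protein of the NuRD complex, fell by 1.01 ± 0.29 (0.0286), a call lost without any 1 of the Bcl2 arrays other than Bcl2 control 2 (adjusted p from 0.0518 to 0.115).

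Of 6 other PRC2 genes, 0 were higher and 2 lower, with a median of -0.521, or -0.37 with genes below background in a group set to their bound. They were Rbbp7, a histone-binding subunit (-1.69 ± 0.34, limma, adjusted p = 0.00434), and Epop, an accessory subunit (-1.58 ± 0.40, 0.0146). Epop lost its call without Bcl2 labelled deficient 1 or Bcl2 control 3 (adjusted p = 0.0544 and 0.0584). Polycomb repressive complex 1 (PRC1) compacts chromatin and ubiquitinates histone H2A. Of its 25 measured genes, 3 (12%) were higher and 2 (8%) lower, near the 11.7% and 11.3% of all genes. Auts2, an activating partner of some PRC1 complexes, fell by 2.61 ± 0.33 (adjusted p = 0.000189) and Pcgf6, a subunit of a variant complex, by 1.05 ± 0.16 (0.000892). Scml4 (1.20, 0.0311), Phc3 (0.80, 0.0219) and the E3 ligase Ring1 (0.61, 0.0282) rose. The Scml4 call was lost without any Bcl2 array other than Bcl2 control 1 (0.0693 to 0.107), that of Phc3 without any other than Bcl2 control 3 (0.0502 to 0.0991) and that of Ring1 without any other than Bcl2 control 2 (0.0584 to 0.123). Of 8 genes listed for removal of Polycomb marks, enzymes and their partners, 0 were higher and 1 (12.5%) lower. It was the partner Foxk2 (-0.69, 0.0153), a call lost without Bcl2 labelled deficient 1 or 2 or Bcl2 control 1 or 3 (0.0549 to 0.0671).

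Genes of S phase are listed as markers of cycling cells, and their part in the differences of Dnmt1, Uhrf1 and Dnmt3b was not tested. With Bcl2, 28 of 29 were lower in the labelled deficient group and none higher, with a median log2 difference of -2.10, and Gins4 alone did not pass (-0.54, limma, adjusted p = 0.126). Mcm10 (-3.95), Tyms (-3.95) and Tk1 (-3.86) fell most. Without Bcl2, none of the genes on these lists passed the test, with 3 PRC1 genes at an unadjusted p under 0.05, and the S phase median was -0.0591.

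**Figure D4:**
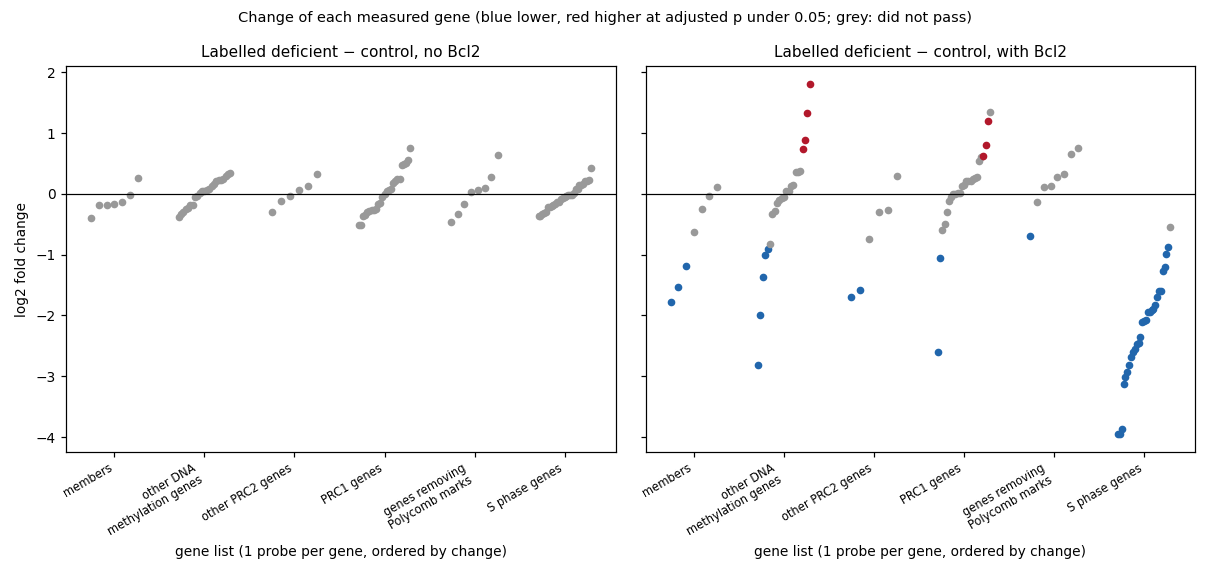
Log2 fold change of every measured gene (points, 1 probe a gene) in the gene lists, labelled deficient minus control, without Bcl2 (left) and with Bcl2 (right); red is higher and blue lower at an adjusted p under 0.05. All points at left are grey, while at right 3 of 7 members and 28 of 29 S phase genes are blue.

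The interaction was called lower for 3 of 23 other DNA methylation genes (Cdca7, Apex1 and Idh1), 1 of 6 other PRC2 genes (Rbbp7), 2 of 25 PRC1 genes (Auts2 and Pcgf6) and 27 of 29 S phase genes, and higher for none of them. Over all 9687 genes 3.7% were called higher and 5.23% lower. The Rbbp7 call was lost without any 1 array of 8, all 6 labelled deficient arrays and Bcl2 controls 1 and 2 (adjusted p from 0.0713 to 0.116), and that of Auts2 without labelled deficient 1 (0.0511) or Bcl2 labelled deficient 2 (0.0516). In wild type cells Mbd6 was higher with Bcl2 (0.86, limma, adjusted p = 0.0218), as was Bcorl1 (at least 1.05-fold, 0.00388). Of 29 S phase genes 4 were lower, among them Rrm2 (-1.10), Gins1 (-0.86) and Ccne2 (-0.84), where 3.86% of all genes were called higher and 3.29% lower. Mbd6 did not pass without control 1 or Bcl2 control 1 or 3 (adjusted p from 0.0624 to 0.0944), Gins1 without control 1 or Bcl2 control 2 or 3 (0.0633 to 0.103), and Ccne2 without Bcl2 control 1 or 3 (0.0589 and 0.0635). In labelled deficient cells with Bcl2 against without, 6 of 23 other DNA methylation genes were higher and 5 lower, and 0 and 2 of 6 PRC2 genes. Higher and lower were 6 and 2 of 25 PRC1 genes, and 0 and 29 of 29 S phase genes. Of 8 genes listed for removal of Polycomb marks, 2 were higher and 0 lower. Over all genes 20.3% were higher and 17.5% lower, near the shares of the DNA methylation list. Cdca7 (-2.91), Apex1 (-2.24), Tdg (-1.16), Rbbp7 (-2.07) and Auts2 (-1.72) fell, and Phf19 was at least 1.84-fold lower (0.028). Gadd45g (1.89), Mbd6 (1.47), Uhrf2 (1.45), Scml4 (2.55), Cbx7 (1.59), Bcorl1 (1.30), Cbx8 (1.16), Phc3 (1.06), Mysm1 (1.12) and Usp16 (0.54) rose. Phf19, Mysm1, Cbx7 and Usp16 each lost their call without any single Bcl2 labelled deficient array. Further losses came without labelled deficient 1 or 3 for Phf19 (adjusted p from 0.0519 to 0.109), labelled deficient 1 or 2 or Bcl2 control 1 for Mysm1 (0.0522 to 0.151), labelled deficient 3 for Cbx7 (0.0528 to 0.0964) and labelled deficient 2 or 3 for Usp16 (0.0528 to 0.0927).

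In DN3 cells, 10 of 24 other DNA methylation genes were higher and 6 lower than in controls, and 1 and 1 of 6 PRC2 genes. Higher and lower were 7 and 4 of 25 PRC1 genes, and 1 and 13 of 29 S phase genes. Of 8 genes listed for removal of Polycomb marks, 0 were higher and 2 lower. Over all 10290 genes 2104 (20.4%) were higher and 2438 (23.7%) lower. Mtf2, an accessory subunit that recruits PRC2, was higher by 2.81 ± 0.24 (limma, adjusted p = 3.71e-07), and Rbbp4 was lower by a log2 difference of -0.93 ± 0.16 (0.000268). Among PRC1 genes, Auts2 was at least 23.9-fold lower and Bmi1 (-1.40) and Yaf2 (-1.06) were lower, while Scml4 (3.32), Phc3 (2.18) and Cbx7 (1.50) were higher. Among DNA methylation genes, Gadd45b (-1.94), Gadd45a (-1.25) and Mbd2 (at least 1.67-fold) were lower and Mbd6 (1.30) higher. The oxidase Tet1 (1.34, 0.019) and Gadd45g (1.08, 0.0387) were called higher although their arrays overlapped. The call was lost without control 1, control 2 or DN3 array 3 for Tet1 (0.0626 to 0.0866), and without these or DN3 array 1 for Gadd45g (0.0871 to 0.176). Yaf2 lost its call without control 3 or DN3 array 2 or 3 (0.0771 to 0.118). Foxk2 (-1.62), Usp16 (-1.01), Ccne2 (-1.90), Rrm2 (-1.68) and Gins2 (-1.28) were lower.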

How the data were processed

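RNA of 12 pro-B and 3 DN3 samples was measured on Illumina bead arrays. The authors deposited a scanner table with, per probe and array, a linear signal intensity and a detection fraction, taken here as 1 minus the detection p-value. Per the file headers no normalisation is named, and from the values the intensity is background subtracted on the pro-B arrays and not on the DN3 arrays. The deposited series table holds scores, each probe's linear intensity centred and divided by its spread over the 15 arrays, and was used as an alternative. No label or header names the scanner program or its options. Replicates are separate samples of a group per the labels, where nothing says that each came from its own animals, so p-values measure the spread between these samples.

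Intensities were background corrected, quantile normalised and logged with limma's neqc (R 4.3.3, limma 3.58.1; offset 16), the 12 pro-B arrays alone and all 15 for DN3. Probes with a detection p under 0.05 on at least 3 arrays were kept, 17719 and 18843 of 45263. Contrasts were fitted with lmFit and eBayes over all groups and adjusted by Benjamini-Hochberg over all kept probes (threshold 0.05). Where a group was at background on all its arrays, a fold is given as a bound. Of the probes, 34874 had 1 gene symbol in the platform annotation, 18 several and 10371 none. For counts over genes the brightest kept probe was used. The text names all members and, per list, up to 6 called genes (3 for S phase) with the largest change, in order of size. Scripts were tested on simulated data.

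The members and lists were chosen with earlier results of these data known. Same-numbered arrays deviated together in both deficient comparisons (r from 0.329 to 0.348 without Bcl2 and from 0.249 to 0.396 with it). Elsewhere r went below 0.1 (0.00965 to 0.314 between controls, -0.125 to 0.106 between labelled deficient groups, 0.0291 to 0.0878 with DN3). The main fits used no pairing in any comparison. A block for the replicate number was run as an alternative in each of them. No array pair shared more than 0.703% of its signals, and 0 columns of samples were unmapped. Alternatives covered background correction, scaling, probe filters, slide, arrays left out, array weights and the deposited scores.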

Additional observations from a re-analysis of the deposited data

Results flagged for a closer look

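The labelled deficient effect differed between cells with and without Bcl2 for the 12 genes listed here, by limma's interaction term in the main fit. Of the 27 S phase genes called in the interaction, only the 3 with the largest change are listed. The brightest Bcl11a probe was called lower too (-2.66, limma, adjusted p = 0.000203) and is not among the 12. Leaving out 1 of 12 arrays in turn lost the call 11 times for Dnmt3b, 9 for Dnmt1, 8 for Rbbp7 and 2 for Auts2. With the deposited scores 0 probes passed. The difference (log2, effect with Bcl2 minus effect without) was -1.38 for Dnmt1 (adjusted p = 0.0286), -1.17 for Dnmt3b (0.0387) and -1.36 for Uhrf1 (0.00655). Among other DNA methylation genes it was -2.83 for Cdca7 (adjusted p = 4.07e-05), -2.23 for Apex1 (0.00656) and -1.43 for Idh1 (0.00154). Among Polycomb genes it was -1.76 for Rbbp7 (0.0459), -2.09 for Auts2 (0.0171) and -1.12 for Pcgf6 (0.0127), and among S phase genes -4.02 for Tk1 (5e-05), -3.96 for Tyms (4e-05) and -3.73 for Mcm10 (2.12e-05). The 12 were picked from genes that passed this test, and all rest on the same Bcl2 labelled deficient arrays. Cell type markers were left out. Of these, 2 of 8 pro-B, 2 of 9 neutrophil and monocyte, 1 of 4 DN3 and 1 of 5 dendritic cell markers were called higher. Another 2 of 4 erythroid markers were called lower. The common sign of the 12 is therefore no separate evidence. Over all 9687 genes 3.7% were called higher and 5.23% lower. The brightest Bcl11a probe stood higher than in controls in the labelled deficient group without Bcl2 and lower with it, while a second probe did not pass in either. Its part in these differences was not tested.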

How the results depend on the processing

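Of 1226 member values under alternative settings, 1164 kept their direction and side of the threshold, 33 lost the call, 26 gained it and 3 reversed. The calls of Dnmt1, Uhrf1 and Dnmt3b with Bcl2 were lost with the deposited scores, and that of Dnmt1 also within slide 1. Within-slide values rest on at least 1 group of a single array, assumed to vary like the other groups, except without Bcl2 on slide 1 and with Bcl2 on slide 2. The reversals were all in DN3 minus control: Ezh2 -0.014 with 75th percentile scaling, and with the deposited scores Dnmt3b -0.94, Ezh2 -1.30 and, among other named genes, Gadd45g -0.12. The median of all probes there was -0.103, -0.152 with that scaling and -0.511 with the scores. Of 1766 values of other named genes, 175 lost the call.

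The count of probes called moved most. For labelled deficient minus control without Bcl2 it was 4 (1 higher, 3 lower), against 0 within slide 1 (954 at an unadjusted p under 0.05), 5725 within slide 2 with 2 member probes, 2 with the replicate block, 0 with only the arrays compared (457 unadjusted), 8 with array weights and 0 with the scores (1018 unadjusted). Under 75th percentile scaling its split was 2 higher and 3 lower. With Bcl2 it was 3603, against 733 within slide 1, 6610 with only the arrays compared, 7363 with array weights and 818 with the scores (754 higher, 64 lower; 0 member probes). The interaction gave 1399, against 126 within slide 1 with 0 member probes, 5987 within slide 2, 3750 with array weights and 0 with the scores (1827 unadjusted; 0 member probes). Bcl2 control minus control gave 1224, against 788 with 1 probe per gene, 59 and 7470 within slides 1 and 2 (4 member probes in slide 2), 287 with only the arrays compared, 3894 with array weights (1 member probe) and 0 with the scores (1664 unadjusted); the slide block called 2 member probes. Bcl2 labelled deficient minus labelled deficient gave 6216, against 3826 with 1 probe per gene, 9522 with array weights and 2908 with the scores (2007 higher, 901 lower, against 3241 and 2975), with 5 member probes called within slide 2 and with array weights. DN3 minus control gave 8098, against 4646 with 1 probe per gene and 4371 with only the arrays compared. The causes were not tested.

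Leaving out 1 array in turn gave 2 to 7 probes without Bcl2, 2381 to 6630 with it, 831 to 3002 for the interaction, 571 to 3422 for Bcl2 control minus control, 4616 to 9201 for Bcl2 labelled deficient minus labelled deficient and 6584 to 10792 for DN3. Member probes called ranged from 1 to 3 for the interaction, 3 to 4 with Bcl2, 3 to 5 for Bcl2 labelled deficient minus labelled deficient and 2 to 4 for DN3. The highest counts of the 5 pro-B comparisons came without control 3, the dim array. The replicate block changed no other count by over 1.5 times and no call of a member; the call of Mbd6 in Bcl2 controls was lost (adjusted p = 0.0572). The number of arrays, 3 a group, limits the precision, and Ezh1 was above background on 11 of 15 arrays only.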
